A study of Mus musculus with 8 samples.

Results

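The imprinted Meg3 to Mirg locus of the mouse is a run of maternally expressed noncoding RNA genes, Meg3, Rian and Mirg, with the microRNA and small nucleolar RNA (snoRNA) genes they carry. Its members were all named genes that any of the authors' 5 tables lists in a window of 0.35 Mb on chromosome 12 of the mm9 build, from before Meg3 to past Mirg, leaving out piRNA clusters and transcripts assembled without annotation. This gave 44 of 10844 listed features. They were 39 microRNA genes, 2 snoRNA genes (AF357355 and AF357359) and 3 host or overlapping genes (Meg3, Rtl1 and Mirg); Rian itself was not among the listed features.

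The study sequenced RNA of 19 to 33 nt at successive steps of the purification of the chromatoid body, a cytoplasmic RNA and protein granule of round spermatids, the haploid male germ cells. Its 8 samples came from adult testis of C57BL/6 mice of at least 6 weeks. The fractions were the supernatant (1 library) and a pellet of formaldehyde-fixed, sonicated cells of the seminiferous tubules, and 2 immunoprecipitations (IPs) from the second pellet. A first and a second pellet have 1 library each. The labels tie the single column of pellet values to both, without saying which it holds or whether it pools them. The control IP used an antibody to ACR, the acrosomal protease acrosin (1 library), and the IP of the granule used one to MVH, the germ cell RNA helicase DDX4 (2 libraries, deposited as 1 column of values). Sorted round spermatids with the label hetMIWI (1 library; the labels say no more of the genotype, and MIWI is the PIWI protein PIWIL1) were profiled apart, and the lysate of the same purification (1 library) was the starting material. Each group has a single column of values, so no group could be tested against another, and the differences below are between libraries, with no replicate check.

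As background, the genes of this locus are expressed from the chromosome inherited from the mother, while the protein genes Dlk1, Rtl1 and Dio3 of the same domain are expressed from the paternal one. The control region between Dlk1 and Meg3 is methylated in the male germ line. The long RNAs are thought to be processed into C/D box snoRNAs, which lie in Rian, and into microRNAs, which lie in Meg3, opposite to Rtl1 and, as the large miR-379 to miR-410 cluster, upstream of and within Mirg. A microRNA hairpin can yield a mature RNA from each arm, and the seed near the 5′ end of the mature RNA does most of the pairing with target mRNAs.

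Mature sequences were found for 38 of the 39 microRNA genes and gave 73 mature arms (RefSeq, GRCm38.p6); Mir299 is given by name only. The arms below belong to the genes on which the results turn. Mir379, Mir541, Mir409 and Mir411 had the most reads of the locus in the lysate, and Mir154 differed between supernatant and lysate. Mir543 was the highest of the few locus genes listed for the MVH IP. Capitals mark the seed, bases 2 to 8 from the 5′ end. The authors' values are per gene and do not say which arm the reads came from, so both arms are shown.
miR-379-5p: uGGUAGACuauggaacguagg
miR-379-3p: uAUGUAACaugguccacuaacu
miR-411-5p: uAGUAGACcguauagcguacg
miR-411-3p: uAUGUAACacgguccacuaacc
miR-541-5p: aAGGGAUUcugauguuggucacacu
miR-541-3p: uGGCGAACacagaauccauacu
miR-409-5p: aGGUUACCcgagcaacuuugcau
miR-409-3p: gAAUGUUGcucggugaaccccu
miR-154-5p: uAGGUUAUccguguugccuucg
miR-154-3p: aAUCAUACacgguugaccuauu
miR-543-5p: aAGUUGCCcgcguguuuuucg
miR-543-3p: aAACAUUCgcggugcacuucuu

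The 73 arms held 68 distinct seeds, and 5 seeds were shared by 2 arms of different genes. miR-379-3p and miR-411-3p share AUGUAAC. Between miR-379-5p and miR-1193-5p the shared seed is GGUAGAC, and between miR-376c-5p and miR-376b-5p it is UGGAUAU. The remaining shared seeds are AGGUCAC, in miR-370-5p and miR-1193-3p, and GGUUGUC, in miR-494-5p and miR-410-5p. Mir376a, Mir376b and Mir376c are related genes. The 5p arms of Mir376b and Mir376c are nearly identical, while both arms of Mir376a differ from those of Mir376b also in the seed. How reads that match several genes were handled is not known, so their values are uncertain.

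The locus is described in 4 stretches. Meg3 to Rtl1 (10 members) runs from the Meg3 gene (chr12:110779206-110809939) to the Rtl1 interval (chr12:110828379-110833613), which the authors list once for Rtl1, a retrotransposon-derived gene needed in the placenta, and for Mir127, Mir136 and Mir434, which lie opposite to it. Whether the counting used the strand is not stated in any source at hand. The Rian stretch (chr12:110842155-110899921) has 4 members, Mir341, Mir370 and both snoRNA genes, and 21 microRNA genes lie between Rian and Mirg, from Mir379 (chr12:110947270-110947335) to Mir485 (chr12:110973112-110973184). The Mirg stretch (chr12:110973191-110987667) is 1 deposited interval that holds Mirg and 8 microRNA genes, Mir154, Mir3072, Mir369, Mir377, Mir409, Mir410, Mir412 and Mir541.

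Levels are given as deposited, in FPKM, a fragment number scaled to feature length and library size. For short features this unit does not order genes by reads: from whole-number ratios among low values, 1 lysate read was worth 192 FPKM for a hairpin of 61 nt and 21.0 FPKM for one of 121 nt, the shortest and longest of the locus. FPKM was therefore also converted into implied reads, by a method devised after the values were seen, and genes are compared with each other on that scale. Values such as 9.7 reads occur in genes with a shared interval. Intervals on shares and ratios are exact binomial (Clopper-Pearson) 95% intervals on reads rounded to whole numbers, and cover counting error only, since reads without molecular identifiers are not independent molecules.

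The locus was a small part of testis microRNA in every library. By implied reads it held 0.247% of the microRNA reads of the supernatant (95% interval 0.234 to 0.261%; 1290.3 of 522203 reads). In the pellet, whose read worth is known only within a range, it held 0.186%. The ACR IP had 2.0 locus reads of 284 (0.704%, 0.0854 to 2.52%), and the MVH IP 4.9 of 5388 (0.0904%, 0.0301 to 0.216%). Round spermatids had 63.1 of 15871 (0.398%, 0.305 to 0.508%), and the lysate 815.6 of 250362 (0.326%, 0.304 to 0.349%). The supernatant and lysate intervals did not overlap, those of round spermatids and lysate did, and the ACR IP was too shallow to place. These are shares of microRNA reads and not levels of the locus. The median log2 ratio of supernatant over lysate was 0.12 for its microRNA genes and 0.21 for other microRNA genes. The tables were normalized separately and list different genes, and a gene that a table does not list is not a 0.

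**Figure D1:**
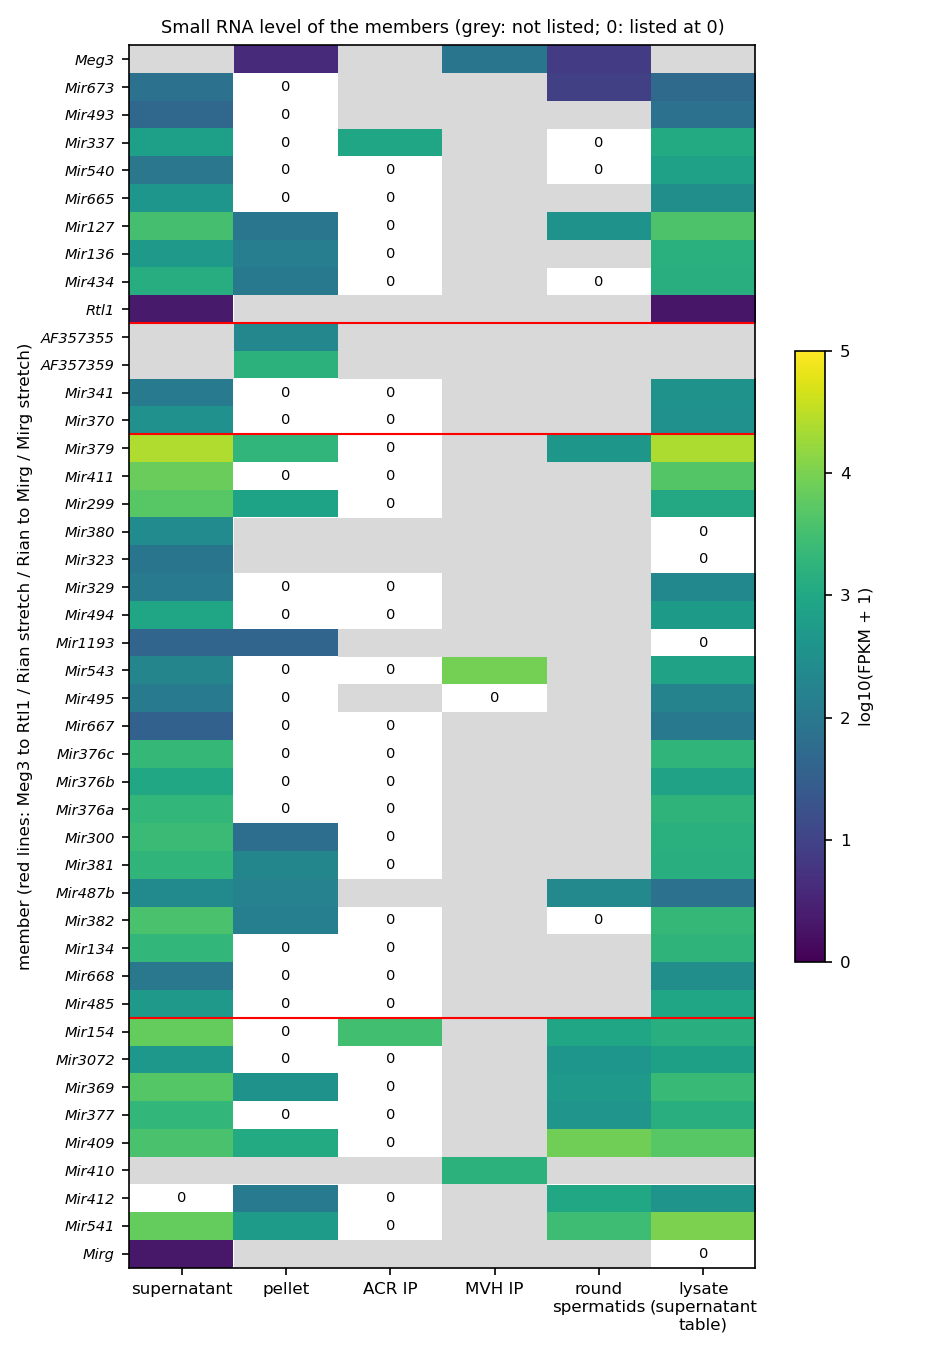
Small RNA level of all 44 members, ordered by deposited interval and then by name (log10 of FPKM + 1, colour) in the supernatant, pellet, ACR IP, MVH IP, round spermatids and lysate, with grey for a gene that the table does not list and 0 for one listed at 0; each column is 1 column of values. The pellet has 22 microRNA genes at 0 and the ACR IP 29.

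In the lysate 35 of the 38 listed microRNA genes of the locus were above 0. Mir541 had 186.7 implied reads and Mir379 162.0, and Mir411 (62.0) and Mir409 (58.7) followed. By FPKM Mir379 stood first with 24215.9, rank 105 of 386 microRNA genes in the supernatant table, and Mir541 second with 10354.8, rank 133. Next came Mir127 with 32.9 reads, Mir369 with 29.7, Mir434 with 29.0 and Mir376c with 28.0, and at the low end Mir487b, Mir493, Mir495 and Mir673 had 1.0 read each. Counting error alone does not separate neighbours in this order such as Mir541 and Mir379, or Mir411 and Mir409. By stretch, the genes between Rian and Mirg held 47.2% of the locus reads (43.7 to 50.7%), the Mirg stretch 38% (34.6 to 41.4%), Meg3 to Rtl1 13.4% (11.1 to 15.9%) and the Rian stretch 1.47% (0.762 to 2.55%).

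The supernatant asks which small RNAs stayed soluble after sonication and spinning. Most locus microRNAs lay close to the lysate there, with a handful on each side. Mir154 and Mir299 were over 4-fold higher in the supernatant, Mir369, Mir411 and Mir382 were higher by less, and Mir541 was lower. Of 40 listed members 7 were at least 2-fold higher, against 7.16% of all features tested. Another 7 were at least 2-fold lower, against 5.42% of all features. Of the 7 higher members, 4 were listed at 0 in the lysate. Among the 38 microRNA members 15.8% were higher and 18.4% lower by 2-fold or more. Among the 348 other microRNA genes these shares were 15.5% and 12.1%. The 38 microRNA members had a median log2 ratio of supernatant over lysate of 0.12, beside 0.21 over the 348 other microRNA genes and 0.02 over all features.

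Mir154, in the Mirg stretch, had 6556.39 FPKM in the supernatant (65.7 reads), against 1444.61 FPKM in the lysate (9.7 reads), a log2 ratio of 2.18 (1.17 to 3.26). Mir299, which lies next to Mir411, had 5086.9 FPKM in the supernatant (44.0 reads), against 1039.84 FPKM in the lysate (6.0 reads), a log2 ratio of 2.29 (1.05 to 3.81). These were the 2 largest log2 ratios among members above 0 in both columns, and each rests on 10 or fewer lysate reads. Mir369 had 4729.73 FPKM in the supernatant, against 2501.35 FPKM in the lysate (0.92, 0.28 to 1.55). Mir411 had 7139.3 FPKM in the supernatant, against 4640.1 FPKM in the lysate (0.62, 0.18 to 1.08), on 143.0 and 62.0 reads. For Mir382 the values were 3628.16 FPKM in the supernatant and 2099.18 FPKM in the lysate (0.79, 0.06 to 1.57). Mir487b had 1.74, but with 5.0 supernatant reads and 1.0 lysate read its interval ran from -1.42 to 7.30.

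In the opposite direction Mir541 had 6503.68 FPKM in the supernatant (175.8 reads), against 10354.8 FPKM in the lysate (186.7 reads), a log2 ratio of -0.67 (-0.98 to -0.37). It was the 1 microRNA of the locus lower in the supernatant whose counting interval left out 0. Mir409, also in the Mirg stretch, had 3585.97 FPKM in the supernatant, against 4946.7 FPKM in the lysate (-0.46, with an interval that reached up to 0.07). Mir379, the highest by FPKM, had 24829.5 FPKM in the supernatant, against 24215.9 FPKM in the lysate (0.04, -0.26 to 0.33). Mir127, which is known to direct cleavage of Rtl1 mRNA, had 3322.01 FPKM in the supernatant, against 4079.17 FPKM in the lysate (-0.30, -1.01 to 0.40). Mir376c had 2179.9 FPKM in the supernatant, against 1867.3 FPKM in the lysate (0.22, -0.48 to 0.95), and Mir434 had 1323.36 FPKM in the supernatant, against 1397.49 FPKM in the lysate (-0.08, -0.81 to 0.65). The Mirg stretch thus held genes on both sides, Mir154 and Mir369 above and Mir541 below.

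The lowest ratios came from few reads. Mir540 had 95.063 FPKM in the supernatant, against 712.521 FPKM in the lysate (-2.91, -8.47 to 0.25), on 1.0 and 5.0 reads. Mir543 had 190.956 FPKM in the supernatant, against 763.339 FPKM in the lysate, on 3.0 and 8.0 reads, with a log2 interval of -4.55 to 0.06. Both intervals held 0. Mir341 had 4.0 supernatant and 8.0 lysate reads (-1.58) and Mir136 4.2 and 8.0 (-1.53), and Mir667 and Mir668 each had 1.0 and 2.0 (-1.58). Mir412 was listed at 0 in the supernatant, against 377.789 FPKM in the lysate (4.7 reads). With a floor of 3 supernatant reads this is at least 2.33-fold lower, if the few lysate reads are taken as exact. Its q-value in the authors' deposited table was 0.0946. Mir380 (256.221 FPKM), Mir323 (85.6914) and Mir1193 (42.0454) were above 0 in the supernatant, on 2 or 3 reads, and listed at 0 in the lysate. For each of these genes above 0 in both columns the counting interval held 0, so no difference was detectable at this depth.

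**Figure D2:**
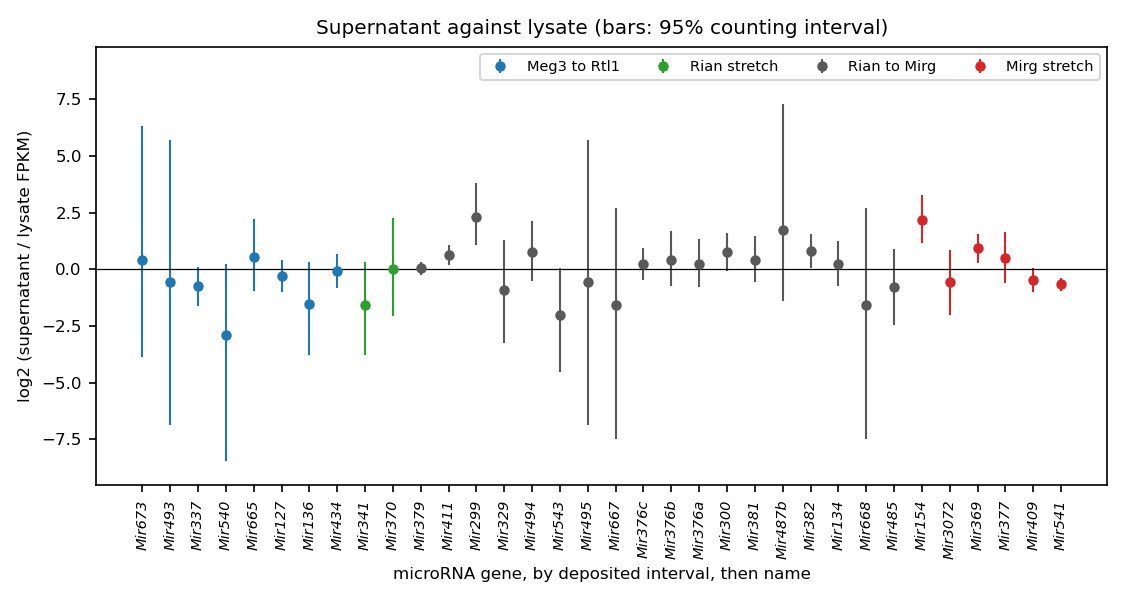
The log2 ratio of supernatant over lysate FPKM for the 34 microRNA genes above 0 in both columns, ordered by deposited interval and then by name, and coloured by stretch; points are single values and bars are 95% counting intervals. Mir154, Mir299, Mir369, Mir411 and Mir382 lie above 0 with their whole interval and Mir541 lies below it.

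In the authors' deposited table, 5 members had a q-value below 0.05 with the supernatant above the lysate (3.77% of all features did), namely Mir154 (q = 6.11e-05), Mir299 (0.00158), Mirg (0.00718), Mir369 (0.0266) and Mir411 (0.0421). Mir541 was the 1 member lower there in the authors' deposited table (q = 0.00026; 4.83% of all features were lower). For Mir382 the q-value in the authors' deposited table was 0.172. Supernatant and lysate had 1 library each, so these q-values cannot measure the spread between preparations. In the pellet comparison below, the lysate side was the same 1 library. Among other microRNA genes the authors' deposited table has 91 of 348 higher (26.1%) and 35 lower (10.1%). No member carries the authors' deposited call of significance, against 2.53% of all features and 49 of the other microRNA genes; how that call was set is not known here. Mirg had 1.10196 FPKM in the supernatant and was listed at 0 in the lysate. Rtl1 had 1.30171 FPKM in the supernatant and 0.986045 FPKM in the lysate, a log2 ratio of 0.40.

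The pellet asks which small RNAs sedimented. Nearly all locus microRNAs were lower there than in the lysate, as were microRNAs in general, and more of the locus was listed at 0. Of 39 listed members 34 were at least 2-fold lower in the pellet, against 86.5% of all features, and 3 were at least 2-fold higher, against 8.75%. Of the 36 listed microRNA members 22 (61.1%) were listed at 0 in the pellet, and of 327 other microRNA genes 52 (15.9%). The 13 microRNA members above 0 in both columns had a median log2 ratio of pellet over lysate of -4.69. It was -4.38 over the 266 other microRNA genes above 0 in both. Genes listed at 0 are left out of both medians. With all 36 the median was -8.86 on the log2(FPKM + 1) scale, beside -4.52 for other microRNA genes and -2.20 for all features, and these values depend on the pseudocount.

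Zeros depend on depth, so the listed genes were also compared within ranges of lysate reads, chosen after the values were seen. Up to 10 lysate reads, 15 of 19 locus genes (78.9%) and 35 of 59 other microRNA genes (59.3%) were at 0 in the pellet. Above 10 and up to 30 reads these were 6 of 11 locus genes (54.5%) and 4 of 31 others (12.9%). Above 30 and up to 200 reads they were 1 of 5 locus genes (20%) and 0 of 64 others. The share at 0 was higher for the locus in each range, on small numbers, and the difference was not tested.

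The gene at 0 in the deepest range was Mir411. It was listed at 0 in the pellet, against 11091.4 FPKM in the lysate column of that table (62.0 reads), which is at least 50.3-fold lower with a floor of 3 pellet reads. Of the 175 microRNA genes with at least 50 lysate reads it was the 1 gene listed at 0 in the pellet. In the authors' deposited table its q-value was 1.2e-10. In the supernatant the same gene was above the lysate (0.62), and Mir379, with which it shares the seed of its 3p arm, was in both fractions. Mir376c (at least 22.7-fold lower in the pellet; 4463.46 FPKM in the lysate), Mir337 (at least 21.1-fold; 2704.26 FPKM) and Mir134, which is known from dendrites of neurons (at least 12.2-fold; 4249.2 FPKM), were also listed at 0 in the pellet. Mir376a, one of the related Mir376 genes, was at least 10.5-fold lower. These bounds are not set against the general fall of microRNA genes in the pellet. The median log2 ratio of pellet over lysate was -4.38 over the 266 other microRNA genes above 0 in both columns. A bound near or below that fall does not set a gene apart from other microRNA genes.

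The genes that were detected in the pellet were mostly the deepest ones. Mir379 had 1943.48 FPKM in the pellet (14 to 17 reads), against 57883.9 FPKM in the lysate, a log2 ratio of -4.90. Mir541 had 585.602 FPKM in the pellet (11 to 14 reads), against 24751.3 FPKM in the lysate (-5.40). Mir409 had 1138.25 FPKM in the pellet (14 to 18 reads), against 11824.2 FPKM in the lysate (-3.38), the least reduced of these 3. Mir127 had 91.1937 FPKM in the pellet (1 read), against 9750.55 FPKM in the lysate, and with -6.74 was the lowest member above 0 in both columns. In the authors' deposited table the q-value of Mir127 was 0.177, while that of Mir434 (-4.97), listed in the same Rtl1 interval, was 0.0031. Mir369 had 352.042 FPKM in the pellet (5 reads), against 5979.06 FPKM in the lysate (-4.09). Mir382 had 140.369 FPKM in the pellet (2 reads), against 5017.74 FPKM in the lysate (-5.16). Mir434 had 106.337 FPKM in the pellet (3 reads), against 3340.45 FPKM in the lysate. Mir300 (-5.87) and Mir136 (-4.70) had 1 pellet read each, and Mir381 (-4.09) and Mir412 (-2.92) had 2.

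Mir299 and Mir487b stood higher among the detected ones, both on few reads. Mir299 had 809.717 FPKM in the pellet (5 to 6 reads), against 2485.57 FPKM in the lysate (6.0 reads), a log2 ratio of -1.62. Mir487b had 165.147 FPKM in the pellet (3 reads), against 178.893 FPKM in the lysate (1.0 read), a log2 ratio of -0.12. Mir299 was thus among the highest of the locus microRNAs relative to the lysate in both the supernatant and the pellet; both comparisons use the same lysate library, in which it had 6.0 reads.

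**Figure D3:**
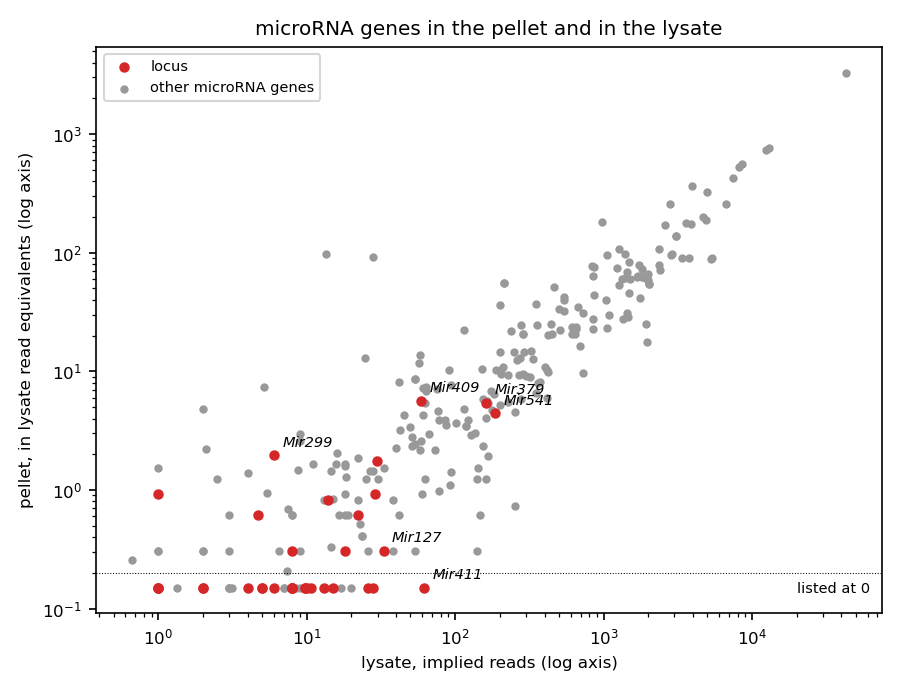
Pellet level in units of 1 lysate read against implied lysate reads (both log axes) for microRNA genes of the locus (red) and other microRNA genes (grey) with a usable length and above 0 in the lysate, with genes listed at 0 in the pellet drawn below the dotted line; each point is 1 gene. Mir411, with 62.0 lysate reads, is the red point farthest right among those listed at 0.

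The 3 members at least 2-fold higher in the pellet were the 2 snoRNA genes of the Rian stretch and Mir1193. AF357359 had 1600.2 FPKM in the pellet and AF357355 had 208.544 FPKM in the pellet, and both were listed at 0 in the lysate. No implied reads were derived for snoRNA genes, so the number of reads behind these values is not known. The q-value of each was 0.396 in the authors' deposited table, against 0.209 for Mir1193. Mir1193 had 41.3527 FPKM in the pellet (2 reads) and was listed at 0 in the lysate. Over the 81 other snoRNA genes the median log2 ratio of pellet over lysate was -2.44, with 3 higher and 66 lower by 2-fold or more. Meg3 had 3.17225 FPKM in the pellet, against 1.68725 FPKM in the lysate (0.91), and in the authors' deposited table its q-value was 0.174. At a q-value below 0.05 the authors' deposited table has 24 members lower in the pellet, against 69.4% of all features and 240 of 327 other microRNA genes, and 0 higher, against 5.59% of all features. No member carries the authors' deposited call there, against 19.4% of all features and 126 (38.5%) of the other microRNA genes.

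The control IP with the ACR antibody was too shallow to place the locus, with 2.0 locus reads in a library of 284 implied microRNA reads. Of 31 listed members, all microRNA genes, 29 were listed at 0 in the ACR IP. Mir154 had 3112.6 FPKM in the ACR IP, against 3008.1 FPKM in the lysate (log2 ratio 0.05, -5.44 to 2.81), and Mir337 had 906.059 FPKM in the ACR IP, against 2355.75 FPKM in the lysate (-1.38, -6.74 to 1.23). Each rests on 1 ACR IP read. On the log2(FPKM + 1) scale 30 of 31 members were at least 2-fold lower, beside 97.7% of the 261 other microRNA genes and 59% of all features, and 0 were at least 2-fold higher, beside 0.766% of other microRNA genes and 36.4% of all features. Nearly all of these are zeros set against the pseudocount. Bounds took 10 lysate reads to each ACR IP read, a floor of 3 reads and the lysate reads as exact. A bound of 2-fold or more was then reached for Mir541 (at least 6.23-fold lower in the ACR IP), Mir379 (at least 5.40-fold) and Mir411 (at least 2.07-fold). No other member listed at 0 reached it. Of the other microRNA genes 191 (73.2%) were also listed at 0.

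The MVH IP, which is meant to hold the chromatoid body, listed 4 members and has no lysate column of its own. Mir543 had 8880.34 FPKM (4.0 reads), rank 122 of 217 microRNA genes, and was the highest of the locus genes listed there. Mir410, which was listed in none of the other tables, had 1631.26 FPKM (0.9 reads, rank 194), and Mir495 was listed at 0. Meg3 had 86.5822 FPKM in the MVH IP, rank 328 of 8742 features other than microRNA genes. The genes with the most lysate reads, Mir541, Mir379, Mir411 and Mir409, were not listed in that table, so no level can be given for them.

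Sorted round spermatids had a different make-up of the locus from the lysate. In round spermatids Mir409 led with 8063.49 FPKM (32.0 reads), rank 73 of 259 microRNA genes, followed by Mir541 with 2818.63 FPKM (17 reads). Mir412 had 969.595 FPKM (4.0 reads), Mir154 896.167 FPKM (2.0), Mir369 505.529 FPKM (2.0) and Mir3072 431.579 FPKM (2.0), all of the Mirg stretch. Mir379, which had 162.0 reads in the lysate, had 446.607 FPKM in round spermatids (1.0 read). Mir377, Mir127 and Mir487b had 1.0 read each in round spermatids, Mir673 had 7.99616 FPKM, under 1 read, and Mir337, Mir382, Mir434 and Mir540 were listed at 0. Meg3 had 6.64028 FPKM in round spermatids.

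Over the 15 microRNA genes listed in both tables, the 7 genes of the Mirg stretch held 95.2% of the locus reads in round spermatids (86.7 to 99%), against 52.6% in the lysate (48.5 to 56.7%). Mir409 alone held 50.7% in round spermatids (37.9 to 63.6%), against 9.97% in the lysate (7.71 to 12.7%). Mir379 held 1.58% in round spermatids (0.0402 to 8.53%), against 27.5% in the lysate (23.9 to 31.3%). Mir541 held 27% in round spermatids (16.6 to 39.7%), against 31.7% in the lysate (28 to 35.7%), and these intervals overlap. Without Mir409 the Mirg stretch still held 90.2% in round spermatids (74.2 to 98%), against 47.4% in the lysate (43 to 51.7%). In the other fractions, over all their listed genes, Mir409 held 22.7% of the locus reads in the pellet (14 to 18 reads), 4.94% in the supernatant and 7.19% in the lysate. The Mirg stretch held 50% in the pellet, 32.7% in the supernatant and 38% in the lysate, but without Mir409 it held 35.3% in the pellet, 29.2% in the supernatant and 33.2% in the lysate. The pellet shares have no counting interval, because the worth of a pellet read is known only within a range.

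The lysate holds all cells of the tubules, and in such bulk samples fewer cells of a type and less RNA per cell cannot be told apart. Of 4 microRNA genes that mark somatic or blood cells (Mir202 for Sertoli cells, Mir451 for red cells, Mir145 and Mir143 for smooth muscle and peritubular cells), all were above 0 in round spermatids, with a summed share of microRNA reads of 0.958% in round spermatids and 2.82% in the lysate. The markers did not move together: Mir451 held 0.0189% in round spermatids and 1.35% in the lysate, and Mir202 0.151% in round spermatids and 0.784% in the lysate. Mir143 held 0.498% in round spermatids and 0.558% in the lysate. Mir145, the 1 marker of these 4 higher in round spermatids, held 0.29% there, against 0.12% in the lysate. A further marker, Mir126 for endothelium, had no usable length and was left out of these shares. It had 1620.59 FPKM in round spermatids and 75396 FPKM in the lysate of the supernatant table, which were normalized separately. The summed share of Mir34b, Mir34c and Mir449a, which are high in meiotic and later germ cells, was 6.63% in round spermatids and 23.9% in the lysate. The part of these markers in the make-up of the locus was not tested. The hetMIWI label and the cell sorting also set the round spermatid library apart from the lysate and cannot be told apart from cell type.

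**Figure D4:**
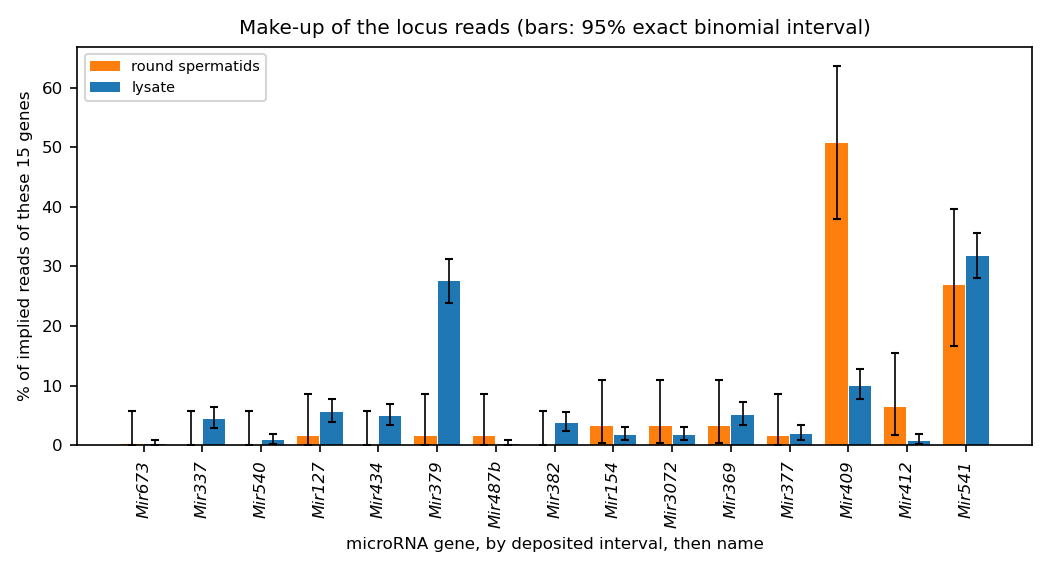
Share of the implied reads of 15 microRNA genes of the locus (%, genes ordered by deposited interval and then by name) in round spermatids (orange) and in the lysate (blue); bars are single values with 95% exact binomial intervals. Mir409 is at 50.7% in round spermatids and 9.97% in the lysate, and Mir379 is at 1.58% and 27.5% in the same order.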

How the data were processed

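Small RNA of 19 to 33 nt from 8 testis samples was deposited as 5 tables. TopHat, Cuffdiff and the mm9 build are named in the submitters' processing notes without roles or versions; which annotation was used and how multiply matching reads were handled was not given in the sources used here. FPKM is what the authors deposited, named so per the file headers for round spermatids and taken from the column names and processing notes elsewhere. For supernatant and pellet, the authors' deposited columns include a p-value, a q-value, a test statistic and a log2 fold change (lysate over fraction; recomputed here as fraction over lysate). A further 1 column belongs to no sample here and was not used.

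Within each table log2((fraction FPKM + 1)/(lysate FPKM + 1)) was taken where either value was at least 1 FPKM, and values 2-fold apart were counted. Ratios printed for single genes carry no pseudocount. Implied reads divide FPKM by the worth of 1 read at each hairpin length (a curve through low values on whole-number ratios, for lengths of 61 to 125 nt) and by a scale per column. Lengths of genes in shared intervals came from RefSeq. Within 0.03 reads of a whole number were 84.5% of low values (up to 12.5 reads) in the supernatant, 85.5% in the pellet, 100% in the ACR IP, 73.1% in the MVH IP, 76.1% in round spermatids and 79.7% in the lysate. The scale of each column was chosen by this same count, so these percentages describe the fit and are no independent check. Of the 38 genes from which the curve was drawn, 17 lay on it. In round spermatids a smaller read worth scored similarly, which would raise the reads and narrow the intervals without changing shares. One supernatant read was worth 0.667 lysate reads, and 1 pellet read 0.308 or 0.411. The method was tested on simulated data made with the same form of curve. Usable lengths were had for 334 of 386 microRNA genes in the supernatant table, 314 of 363 in the pellet table, 263 of 293 in the ACR IP table, 191 of 217 in the MVH IP table and 231 of 259 in the round spermatid table; shares are over these. Lysate values kept 1 ratio between the supernatant and pellet tables for all 35 members compared, and between the supernatant and ACR IP tables for 27 of 31.

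Scripts ran under Python 3.11.15 (scipy 1.17.1, pandas 2.3.3, numpy 2.4.6, matplotlib 3.10.9). The rule for named members asked for values in every column for the 8 highest members in the lysate, the 5 highest and 5 lowest ratios of each comparison, members above 0 in the ACR IP, the 8 highest in the MVH IP and in round spermatids, the host genes and, per comparison, the 5 highest of those at 0 in 1 column. Several of these with few reads are given by reads or ratio instead, and others by range and count; the depth ranges in the pellet were added after the values were seen. The members and lists were chosen with earlier results of these data known.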

Additional observations from a re-analysis of the deposited data

How the results depend on the processing

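Of 74 alternative values, 41 were the same as reported by the rules used, 32 moved and 1 changed direction. Medians and shares had to match at the printed digits, but a count was called the same within a set fold of the reported one. By this rule 24 members 2-fold lower in the pellet, against 34 reported, were called the same. The supernatant median (0.12) became -0.08 when centred on other microRNA genes, 0.10 when centred on all features, and 0.02 with a filter of 100 FPKM or over genes above 0 in both columns; under the last 2 settings 4 and 3 members were 2-fold higher. The pellet median (-8.86) was -12.18 with a pseudocount of 0.1 FPKM, -5.93 with 10, -9.03 with the filter, -4.69 over genes above 0 in both columns, -6.67 centred on all features and -4.34 centred on other microRNA genes; under the last 3 settings 0, 5 and 8 members were 2-fold higher in the pellet, and 12, 32 and 24 were 2-fold lower. The ACR IP median (-11.08) was -14.40 with a pseudocount of 0.1, -7.77 with 10, -0.66 over the 2 genes above 0 in both columns, -8.38 centred on all features and -0.85 centred on other microRNA genes; 2 and 4 members were 2-fold higher under these centrings, against 29 and 15 lower, and 1 was lower among those above 0 in both. By FPKM the locus held 0.1% of microRNA signal in the MVH IP, 0.342% in round spermatids and 0.376% in the lysate. These were 0.101%, 0.397% and 0.369% with FPKM times length and, added after the values were seen, 0.0904%, 0.398% and 0.326% by implied reads; the lysate share was 0.375% over genes of at least 100 FPKM and 0.485% in the ACR IP table, which lists fewer genes. The direction of the pellet and ACR IP medians held under every alternative tried, but their size is set by zeros and the pseudocount. No paired analysis was possible because each group has 1 column of values and the samples share only the number 1. Most locus genes had under 30 lysate reads, so a 2-fold difference of a single gene is within counting error for most of them.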

Other observations

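Other imprinted microRNA genes gave a comparison in the same tables: of 16 genes from other imprinted loci 8 were listed. Mir296 and Mir298, which lie in the imprinted Gnas region, had more reads than most genes of the Meg3 to Mirg locus. Mir296 had 48319.2 FPKM in the supernatant and 45281.1 FPKM in the lysate (log2 ratio 0.09), and 8576.5 FPKM in the pellet, against 108237 FPKM in the lysate (-3.66). It had 17809.5 FPKM in the MVH IP (9.0 reads) and 22673.9 FPKM in round spermatids. Mir298 had 13679.5 FPKM in the supernatant and 15192.6 FPKM in the lysate (-0.15), and 1691.74 FPKM in the pellet, against 36315.3 FPKM in the lysate (-4.42).

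Mir335, of the Mest locus, had 2273.96 FPKM in the supernatant and 1599.18 FPKM in the lysate (0.51), and 82.8332 FPKM in the pellet, against 3822.56 FPKM in the lysate (-5.53). Mir483, which lies in Igf2, had 1736.84 FPKM in the supernatant and 1952.7 FPKM in the lysate (-0.17), and 239.386 FPKM in the pellet, against 4667.6 FPKM in the lysate (-4.29). All 4 were above 0 in the pellet and at 0 in the ACR IP. Of 6 neighbour genes of the domain 2 were listed, Rtl1 and Ppp2r5c, which had 1.57594 FPKM in the supernatant and 1.05694 FPKM in the lysate. Lysate values of 4 members, Mir134, Mir376b, Mir376c and Mir540, were below the common ratio between the ACR IP and supernatant tables, at 0.800 of it for Mir540 to 0.964 of it for Mir376c.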
